A study of Homo sapiens with 6 samples.

Results

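The genes described here are 10 parts of the actomyosin contractile apparatus and its transcription factor, taken from the table of 58735 genes by their gene symbols: *ACTA2*, *ACTN1*, *TPM1*, *TPM2*, *CNN1*, *CNN2*, *TAGLN*, *CALD1*, *MYL9* and *SRF*. TPC-1, a human papillary thyroid carcinoma cell line, was compared as 3 libraries of wild strain cells with 3 libraries of *RRM2*-OE-TPC-1 cells. The latter are TPC-1 cells infected with a lentivirus that carries full-length *RRM2* behind a CMV promoter in the LV18 vector, and selected with puromycin. *RRM2* encodes the small subunit of ribonucleotide reductase, the enzyme that makes deoxyribonucleotides. No empty vector library was analysed here, so that infection, selection and *RRM2* itself cannot be told apart. The libraries of a group are described as biological triplicates of a single line. Replicates 2 and 3 of the overexpression strain carry a genotype label of RRM3 and RRM4 overexpression, and titles that name *RRM2*.

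Serum response factor (SRF) is a transcription factor that binds the CArG box, a short element of paired cytosines and guanines around a run of adenines and thymines. Which targets it turns on depends on its partner. The myocardin-related factors MRTFA and MRTFB are held back by unpolymerised actin and, once released by actin assembly, switch on cytoskeletal and contractile genes, whereas the ternary complex factors ELK1, ELK3 and ELK4 respond to growth factor signalling and switch on immediate early genes. The contractile genes are best known from smooth muscle and myofibroblasts, and several are also used by the stress fibres of cultured epithelial and carcinoma cells.

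Of the 10 genes, 9 could be tested, and in *RRM2*-OE-TPC-1 8 of these had risen and none had fallen. *ACTA2*, *TAGLN* and *CALD1* more than doubled, *MYL9* and *TPM2* rose by somewhat less than a doubling, *ACTN1*, *CNN2* and *TPM1* rose by 0.25 to 0.54 on the log2 scale, and *SRF* was not called. Called means an adjusted p of 0.05 or less from limma, fitted to log2(FPKM + 0.1) over 13621 genes. FPKM, the unit of all levels given here, is a fragment count scaled to gene length and to sequencing depth. The median log2 fold change of the 9 genes was 0.85, beside 0.01 over all tested genes. The 10 genes were chosen with earlier results of these data known. Their counts and median beside all tested genes are therefore description only. Changes were common in these cells, and 34.9% of all tested genes were called higher and 32.7% lower. With a doubling as a further condition, 3 of the 9 were called, beside 4.48% of all tested genes. No gene of the 9 was called with a halving, which held for 6.97% of all tested genes. In each of the 9, every *RRM2*-OE-TPC-1 library lay above every TPC-1 library, as in 37.3% of all tested genes. *ACTA2* passed the filter on low values only through the *RRM2*-OE-TPC-1 libraries, and it is among the genes counted above as doubled and as without overlap. Without *ACTA2*, 7 of 8 genes were called higher, 2 of them with a doubling, with a median of 0.69. The 10 genes took 0.212% to 0.216% of the reads on genes in TPC-1 and 0.310% to 0.319% in *RRM2*-OE-TPC-1. In such bulk RNA, more cells that express a gene and more RNA per cell cannot be told apart.

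**Figure D1:**
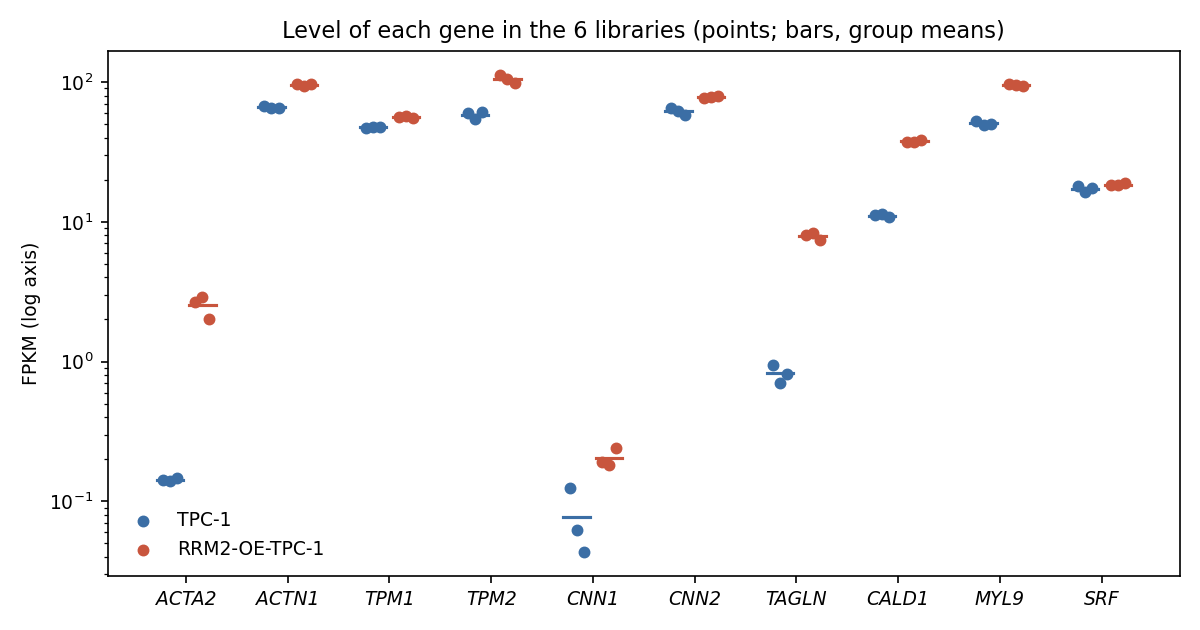
Level of each of the 10 genes in FPKM on a log axis, with a point for each of the 6 libraries and a bar for the group mean. *ACTA2*, *TAGLN*, *CALD1*, *MYL9* and *TPM2* are visibly separated, whereas the *SRF* points of the groups lie next to each other, between 16.3 and 18.9 FPKM.

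CArG boxes were searched in the promoter windows of RefSeq on GRCh38.p14, which run from 250 bases before to 50 bases after a gene's start. The motif was CC, then 6 bases of A or T, then GG, which reads the same on either strand. An exact match stood in 454 of 35116 windows (1.29%), or in 1.60% of genes, and a match with at most 1 mismatch in 22.3% of genes. Of the 10 genes, 8 had a window, and *TAGLN* and *MYL9* had none. *SRF*, *ACTN1* and *CNN2* held an exact match, and *ACTA2* and *CALD1* held matches with 1 mismatch. The stretches below show these boxes in capitals, 5′ to 3′ on the strand of the gene. *ACTA2*, *SRF*, *ACTN1* and *CNN2* are shown because they span the range from the largest change to none that was called, and *SMTN* and *EGR1* because they changed most among the tested SRF target and smooth muscle genes outside the 10, in opposite directions.
ACTA2: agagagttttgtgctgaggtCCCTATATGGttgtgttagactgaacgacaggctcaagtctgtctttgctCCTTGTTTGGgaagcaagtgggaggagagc
SRF: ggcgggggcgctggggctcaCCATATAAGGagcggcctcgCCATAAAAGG
ACTN1: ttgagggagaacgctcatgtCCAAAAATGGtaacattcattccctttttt
CNN2: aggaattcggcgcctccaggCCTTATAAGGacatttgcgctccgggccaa
SMTN: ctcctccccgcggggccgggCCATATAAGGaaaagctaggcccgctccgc
EGR1: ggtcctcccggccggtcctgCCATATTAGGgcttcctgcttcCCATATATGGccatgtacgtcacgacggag
The *ACTA2* stretch lies at chr10:88952815-88952914 on the minus strand, inside the gene as annotated and outside its exons, and its 2 boxes begin at -121 and -71 from the start of the transcript. Each of them has 1 mismatch to the motif. The *SRF* stretch at chr6:43171219-43171268 on the plus strand, just upstream of the gene, holds 2 exact boxes at -30 and -10. The *ACTN1* stretch at chr14:68977708-68977757 on the minus strand and the *CNN2* stretch at chr19:1026499-1026548 on the plus strand hold 1 exact box each, at -171 and -89. The *SMTN* stretch is at chr22:31084932-31084981 and the *EGR1* stretch, with 2 exact boxes, at chr5:138465354-138465425, both on the plus strand. Among these stretches, an exact box stood before genes that rose, a gene that was not called and a gene that fell. The genes shown were chosen by their changes, so they cannot show whether a box goes with a direction of change.

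Before the contractile genes, the overexpressed gene was examined in every library. *RRM2* (ENSG00000171848) was at 9.17, 9.05 and 8.52 FPKM in TPC-1 replicates 1 to 3 and at 50.4, 47.5 and 47.2 FPKM in *RRM2*-OE-TPC-1. The groups were far apart, in the direction of their labels, and the log2 fold change was 2.43 (SE, the standard error, 0.0442, adjusted p = 1.11e-08). The libraries held 14317091 to 17084067 reads on genes. Between replicates the chi-square per gene was 3.05 to 3.23 in TPC-1, whereas among the overexpressing libraries it was 5.30 and 6.00 for replicate 1 against replicates 2 and 3 and 1.82 between these. Replicate 1 of *RRM2*-OE-TPC-1 therefore stood further from its group, and without it 8 of the 9 genes were again called, 3 of them with a doubling.

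*ACTA2* (ENSG00000107796, chr10:88935074-88991339) encodes smooth muscle alpha-actin, the actin of contractile smooth muscle and myofibroblasts. It was at 0.141, 0.140 and 0.148 FPKM in the TPC-1 libraries, from 7, 7 and 7 reads, and at 2.67, 2.90 and 2.00 FPKM in *RRM2*-OE-TPC-1, from 115, 148 and 95 reads. The gene was barely detected in wild strain cells and was present at a low level in all 3 *RRM2*-OE-TPC-1 libraries, with no overlap. The log2 fold change was 3.42 (SE 0.173, adjusted p = 1.23e-06), place 18 among the increases of all 13621 tested genes. Computed from the reads and the depth, this was 17.7-fold, with an exact 95% interval of 11.4 to 29 that covers counting error only. The fitted value rested on the pseudocount, and it was 1.62 with a pseudocount of 1 and 4.04 with 0.01. The spread of the TPC-1 values, a CV of 2.93%, was smaller than the 37.8% that counting alone gives at this depth. Of the 2976 exon bases of *ACTA2*, 380 (12.8%) also lie in exons of *FAS* on the opposite strand, and whether strand was used in counting is not given in the sources used here. *FAS*, a death receptor gene, rose from 2.94 ± 0.278 FPKM to 9.46 ± 0.279 FPKM (mean ± SD of 3 libraries), by 1.66 on the log2 scale (adjusted p = 7.94e-07). The antisense gene *ACTA2-AS1* shares 516 exon bases (17.3%) with *ACTA2*. It had 0, 0 and 0 reads in the TPC-1 libraries and 4, 2 and 12 in *RRM2*-OE-TPC-1. The part of *FAS* and of *ACTA2-AS1* in the *ACTA2* reads was not tested.

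Alpha-actinin cross-links actin filaments at focal adhesions and along stress fibres. *ACTN1* (ENSG00000072110, chr14:68874143-68979440), a non-muscle isoform, was at 67.4, 64.9 and 65.7 FPKM in TPC-1 and at 97.3, 94.0 and 96.3 FPKM in *RRM2*-OE-TPC-1. The groups did not overlap, and the log2 fold change was 0.54 (SE 0.0316, adjusted p = 2.57e-06).

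Tropomyosins lie along the actin filament and set the access of myosin and other proteins to it. *TPM2* (ENSG00000198467, chr9:35681992-35690121) was at 59.7, 54.2 and 61.3 FPKM in TPC-1 and at 113, 105 and 97.7 FPKM in *RRM2*-OE-TPC-1, a log2 fold change of 0.85 (SE 0.0638, adjusted p = 9.72e-06). *TPM1* (ENSG00000140416, chr15:63042632-63071915) was at 46.7, 47.6 and 47.7 FPKM in TPC-1 and at 56.4, 57.3 and 55.7 FPKM in *RRM2*-OE-TPC-1, a log2 fold change of 0.25 (SE 0.0297, adjusted p = 1.18e-04). Both rose without overlap, and their 95% intervals, 0.70 to 0.99 for *TPM2* and 0.18 to 0.32 for *TPM1*, did not meet. The antisense gene *TPM1-AS* shares 2070 exon bases (16.1%) with *TPM1*, and was at a mean of 1.47 FPKM over the 6 libraries.

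Calponin and transgelin are related actin-binding proteins, and calponin holds back the myosin ATPase. *CNN1* (ENSG00000130176, chr19:11538717-11550323), the smooth muscle calponin, was at 0.125, 0.0618 and 0.0435 FPKM in TPC-1 and at 0.192, 0.182 and 0.239 FPKM in *RRM2*-OE-TPC-1. These values come from 11 and 28 reads in all, too few for the test, and the ratio was 2.65 with a counting interval of 1.28 to 5.90. *CNN2* (ENSG00000064666, chr19:1026581-1039068), the calponin of many non-muscle cells, was at 64.8, 61.6 and 58.6 FPKM in TPC-1 and at 76.4, 78.6 and 79.3 FPKM in *RRM2*-OE-TPC-1. It rose by 0.34 on the log2 scale (SE 0.0421, adjusted p = 1.60e-04). *TAGLN* (ENSG00000149591, chr11:117199321-117204782), also known as SM22-alpha and an early marker of smooth muscle, was at 0.948, 0.698 and 0.817 FPKM in TPC-1 and at 7.98, 8.30 and 7.47 FPKM in *RRM2*-OE-TPC-1. The lowest *RRM2*-OE-TPC-1 library was thus far above the highest TPC-1 library, with a log2 fold change of 3.13 (SE 0.111, adjusted p = 2.30e-07) and place 26 among all increases. From the reads it was 9.65-fold, with a counting interval of 8.19 to 11.4, and a pseudocount of 1 gave 2.29 on the log2 scale. Of its exon bases, 446 (11.4%) lie in exons of *PCSK7* on the opposite strand, a proprotein convertase gene at a mean of 1.44 FPKM over the 6 libraries. *PCSK7* rose from a mean of 1.18 FPKM in TPC-1 to 1.70 FPKM in *RRM2*-OE-TPC-1, by 0.50 on the log2 scale (adjusted p = 2.76e-03). The part of *PCSK7* in the *TAGLN* reads was not tested.

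Caldesmon and the myosin regulatory light chain act on the interaction of actin with myosin. *CALD1* (ENSG00000122786, chr7:134744252-134970728), the gene of caldesmon, was at 11.1, 11.4 and 10.8 FPKM in TPC-1 and at 37.1, 37.0 and 38.7 FPKM in *RRM2*-OE-TPC-1. Its log2 fold change of 1.75 (SE 0.0382, adjusted p = 2.60e-08) combined a large change with a narrow spread, and it took place 134 among all increases. *MYL9* (ENSG00000101335, chr20:36541484-36551447) encodes the light chain whose phosphorylation starts contraction. It was at 52.6, 49.4 and 50.2 FPKM in TPC-1 and at 96.4, 95.6 and 93.3 FPKM in *RRM2*-OE-TPC-1, a log2 fold change of 0.91 (SE 0.0351, adjusted p = 3.33e-07).

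*SRF* (ENSG00000112658, chr6:43171299-43181507) itself was at 17.9, 16.3 and 17.4 FPKM in TPC-1 and at 18.3, 18.3 and 18.9 FPKM in *RRM2*-OE-TPC-1. The groups did not overlap, but they nearly touched, and the log2 fold change of 0.11 (SE 0.0448) was not called (adjusted p = 0.0656). It was called without replicate 1 of TPC-1, at 0.14 (adjusted p = 0.0344). The change of *SRF* mRNA had an unadjusted 95% interval of 0.0025 to 0.21, so that it did not reach the change of *CNN2*, 0.24 to 0.44, but met that of *TPM1*.

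Ordered by the size of the change, the genes were *ACTA2*, *TAGLN*, *CALD1*, *MYL9*, *TPM2*, *ACTN1*, *CNN2*, *TPM1* and *SRF*. The 95% intervals of neighbours overlapped for *ACTA2* and *TAGLN*, for *MYL9* and *TPM2*, for *CNN2* and *TPM1*, and for *TPM1* and *SRF*. They were apart for *TAGLN* and *CALD1*, for *CALD1* and *MYL9*, for *TPM2* and *ACTN1*, and for *ACTN1* and *CNN2*. The order of the levels was another one. In TPC-1, mean FPKM was 66.0 for *ACTN1*, 61.7 for *CNN2*, 58.4 for *TPM2*, 50.7 for *MYL9*, 47.3 for *TPM1*, 17.2 for *SRF*, 11.1 for *CALD1*, 0.821 for *TAGLN*, 0.143 for *ACTA2* and 0.0766 for *CNN1*. Among neighbours in this order, the values of the 3 libraries overlapped for *CNN2* and *TPM2*, and for no other pair. In *RRM2*-OE-TPC-1 the means were 105 for *TPM2*, 95.9 for *ACTN1*, 95.1 for *MYL9*, 78.1 for *CNN2*, 56.4 for *TPM1*, 37.6 for *CALD1*, 18.5 for *SRF*, 7.92 for *TAGLN*, 2.53 for *ACTA2* and 0.204 for *CNN1*. There, too, a single pair of neighbours overlapped, *ACTN1* and *MYL9*. The 3 genes with the largest log2 fold changes were thus below the other tested ones in TPC-1, and *ACTA2* and *TAGLN* remained below *SRF* in *RRM2*-OE-TPC-1.

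**Figure D2:**
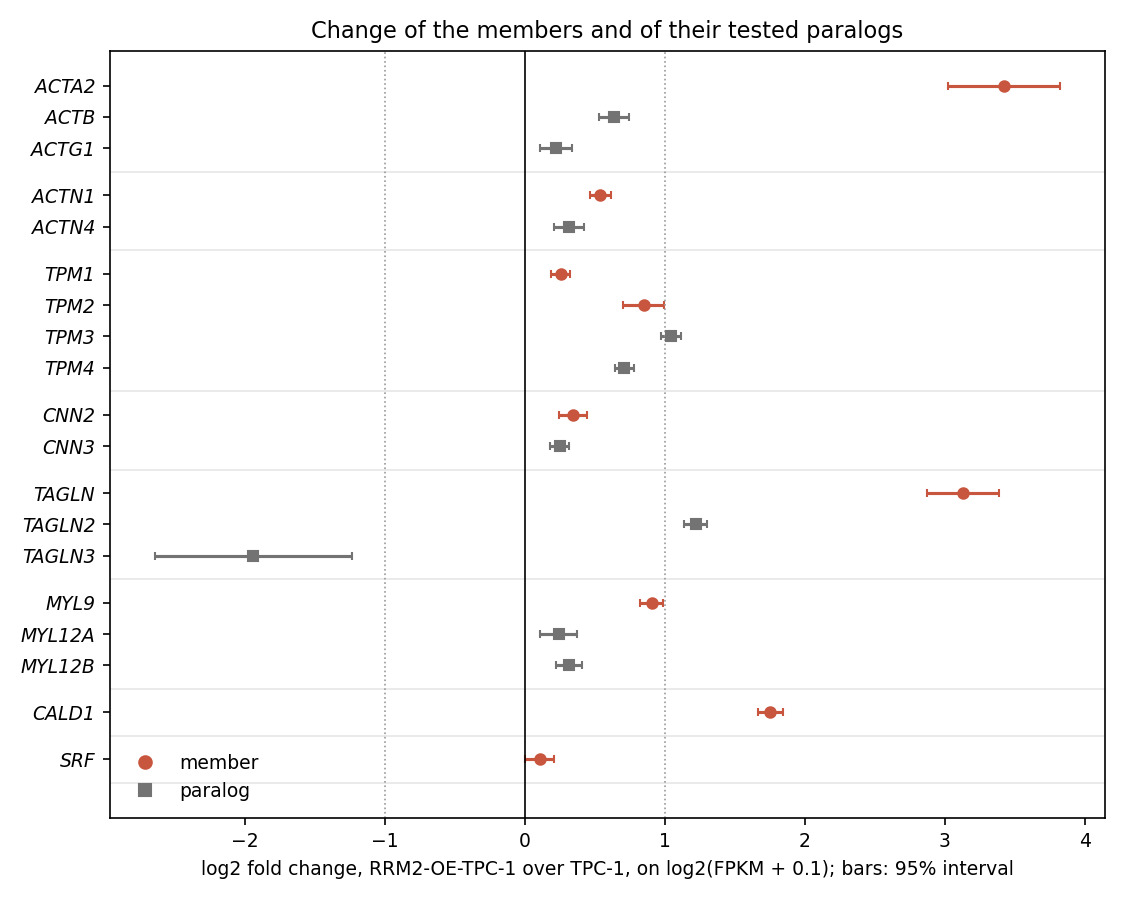
Log2 fold change of *RRM2*-OE-TPC-1 over TPC-1 on the log2(FPKM + 0.1) scale for the 9 tested genes (circles) and their 10 tested paralogs (squares), grouped by family, with 95% intervals and dotted lines at a halving and a doubling. *ACTA2* and *TAGLN* lie near 3 and above, most paralogs lie between 0.2 and 1.3, and *TAGLN3* lies at -1.94.

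The same families hold 15 further isoforms, or paralogs, only some of which are used by most cells. Of these 15 paralogs 10 were tested, with 9 called higher and 1 called lower (median log2 fold change 0.31). Over all tested genes, 34.9% were called higher and 32.7% lower. *ACTB* and *ACTG1*, the cytoplasmic actins, rose by 0.63 (adjusted p = 8.61e-06) and 0.22 (adjusted p = 3.96e-03) on the log2 scale. *TAGLN2*, the widely expressed transgelin, rose from 150 ± 3.82 to 348 ± 6.03 FPKM (mean ± SD, n = 3), or by 1.22 on the log2 scale (adjusted p = 9.25e-08). *TPM3* rose by 1.04 (adjusted p = 9.88e-08) and *TPM4* by 0.71 (adjusted p = 5.64e-07), both more than *TPM1*. The remaining increases were smaller, at 0.25 for *CNN3* (adjusted p = 1.23e-04), 0.32 for *ACTN4* (adjusted p = 4.02e-04), 0.24 for *MYL12A* (adjusted p = 5.60e-03) and 0.31 for *MYL12B* (adjusted p = 2.43e-04). *TAGLN3*, a transgelin of neurons, fell by 1.94 (adjusted p = 6.25e-04), from 0.870, 0.797 and 0.771 FPKM to 0.0773, 0.0978 and 0.280 FPKM. It passed the filter on low values only through the TPC-1 libraries and rested on 2, 3 and 8 reads in *RRM2*-OE-TPC-1, so that the count of 1 called lower is no support for a direction. The muscle isoforms *ACTG2*, *ACTA1*, *ACTC1*, *ACTN2* and *ACTN3* were not tested, with at most 11 reads in a library. *ACTG2*, the other smooth muscle actin, had 2, 4 and 1 reads in TPC-1 and 1, 1 and 4 in *RRM2*-OE-TPC-1, in contrast to *ACTA2*.

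Within a family, the isoforms did not rise in proportion. The summed FPKM of *RRM2*-OE-TPC-1 was 1.33 times that of TPC-1 for the actins, 2.36 times for the transgelins, 1.22 times for the calponins, 1.69 times for the tropomyosins, 1.31 times for the alpha-actinins and 1.37 times for the regulatory light chains. The share of *MYL9* in the light chain FPKM was 23.9% in wild strain cells and 32.6% in *RRM2*-OE-TPC-1 cells, and the shares of *MYL12A* and *MYL12B* were 34.8% and 41.3% in TPC-1 and 29.9% and 37.4% in *RRM2*-OE-TPC-1. *ACTN1* went from 30.3% to 33.6% of the alpha-actinins. In the tropomyosins, *TPM1* went from 22.2% to 15.6% although its level rose, *TPM3* from 25.7% to 31.3% and *TPM2* from 27.4% to 29.1%. *TAGLN* went from 0.542% to 2.22% of the transgelins and *ACTA2* from 0.00581% to 0.0775% of the actins, so that both stayed minor isoforms. *CNN2* went from 37.1% to 38.6% of the calponins. With 3 libraries against 3, the smallest two-sided p of an exact permutation test is 0.1. The exact permutation test gave this p for each of these shares except *TPM2* (p = 0.2), whose groups overlapped. The *CNN2* difference of 1.50 percentage points was 0.896 without replicate 3 of TPC-1. The *TPM2* difference of 1.74 percentage points was 1.04 without replicate 1 of *RRM2*-OE-TPC-1 and 1.10 without replicate 2 of TPC-1.

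**Figure D3:**
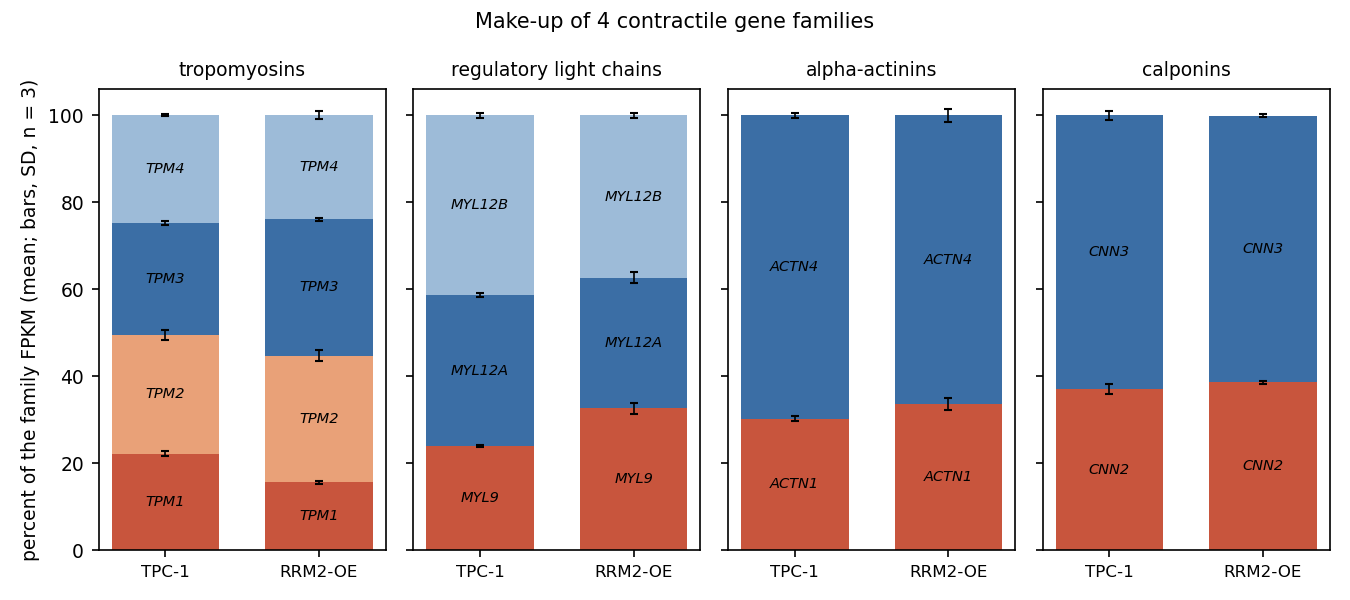
Share of each isoform in the summed FPKM of its family, in percent, as the mean of 3 libraries per group with the SD of each share drawn at the top of its segment, in a panel per family (*CNN1*, *ACTN2* and *ACTN3* are too low to be seen). The *TPM1* segment is narrower in *RRM2*-OE-TPC-1, 15.6% against 22.2%, and the *MYL9* segment is wider, 32.6% against 23.9%.

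Of the 7 genes on the list of SRF cofactors, 6 were tested, none was called higher and 4 were called lower (median log2 fold change -0.27). These counts are too small to be read against the 34.9% called higher and 32.7% called lower of all tested genes. *MRTFA* was at 8.03, 7.74 and 7.35 FPKM in TPC-1 and at 7.75, 7.32 and 7.15 FPKM in *RRM2*-OE-TPC-1, with overlapping groups (log2 fold change -0.06, adjusted p = 0.392). *MRTFB* was at 3.89, 3.93 and 4.30 FPKM and at 3.46, 3.61 and 3.47 FPKM (log2 fold change -0.20, adjusted p = 0.0307), and *SCAI*, an inhibitor of MRTF, at 1.34, 1.29 and 1.57 FPKM and at 1.07, 1.09 and 1.01 FPKM (log2 fold change -0.37, adjusted p = 0.0238). These calls were weak. That of *MRTFB* was lost without any one of the *RRM2*-OE-TPC-1 replicates 1 (adjusted p = 0.0748), 2 (0.0503) and 3 (0.0771) or without replicate 3 of TPC-1 (0.107), and that of *SCAI* without replicate 3 of either group (0.0654 in *RRM2*-OE-TPC-1, 0.0890 in TPC-1). *ELK3* fell from 43.7 ± 0.760 to 32.1 ± 0.681 FPKM (log2 fold change -0.44, adjusted p = 8.93e-06) and *ELK4* from 16.0 ± 0.770 to 12.6 ± 0.670 FPKM (log2 fold change -0.34, adjusted p = 6.53e-04, SD and n = 3 throughout). *ELK1* had a log2 fold change of 0.01 (adjusted p = 0.895), whose sign turned when libraries were scaled to their totals, -0.05. *MYOCD*, the smooth muscle cofactor myocardin, had 0 reads in all 6 libraries. mRNA levels say nothing of where the MRTF proteins were in the cell.

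Of the myosin II motor and its regulators, 7 of 10 tested genes were called higher and 1 lower (median 0.23), beside 34.9% and 32.7% of all tested genes. *MYL12A* and *MYL12B*, both called higher, were already counted among the paralogs. *PPP1R14B*, of the family of myosin phosphatase inhibitors, rose from 66.1 ± 4.85 to 116 ± 7.01 FPKM (log2 fold change 0.81, adjusted p = 1.12e-05). *MYH9*, the main non-muscle myosin heavy chain, rose by 0.49 (adjusted p = 1.65e-05) and the essential light chain *MYL6* by 0.46 (adjusted p = 4.36e-06), whereas *PPP1CB*, the catalytic subunit of the myosin phosphatase, fell by 0.28 (adjusted p = 3.43e-04).

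Other cytoskeletal targets of SRF were also mostly higher, with 13 of 19 tested genes called higher and 5 lower (median 0.27). The shares of all tested genes were 34.9% and 32.7%. *MYH9*, *ACTB*, *ACTG1* and *TPM4* stand on this list and on another one. *LIMA1*, an actin-bundling protein, was at 10.1, 10.5 and 10.5 FPKM in TPC-1 and at 28.9, 29.1 and 29.3 FPKM in *RRM2*-OE-TPC-1 (log2 fold change 1.48, adjusted p = 3.94e-08). *FLNC*, a filamin, rose by 1.27 (adjusted p = 5.11e-08) and the matricellular gene *CCN2* by 0.85 (adjusted p = 1.59e-06). The LIM domain genes *FHL1*, *PDLIM5* and *TGFB1I1* fell by 1.07 (adjusted p = 5.35e-07), 0.59 (adjusted p = 7.38e-05) and 0.20 (adjusted p = 0.0240), the last not without replicate 1 or 3 of *RRM2*-OE-TPC-1 (adjusted p = 0.0746 and 0.0762) or replicate 2 of TPC-1 (0.0776).

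Of 9 immediate early targets, 6 were tested, and 1 was called higher and 3 lower (median -0.31), counts too small to be read against the 34.9% and 32.7% of all tested genes. *EGR1*, a zinc finger factor that growth factors induce within minutes, was at 10.2, 9.42 and 8.92 FPKM in TPC-1 and at 1.04, 1.38 and 1.96 FPKM in *RRM2*-OE-TPC-1. The log2 fold change was -2.67 (SE 0.191, adjusted p = 7.21e-06), and its promoter holds the 2 exact CArG boxes shown above. *IER2* fell by 0.51 (adjusted p = 2.67e-04) and *NR4A1* by 0.35 (adjusted p = 0.0269), the latter not without replicate 3 of *RRM2*-OE-TPC-1 (adjusted p = 0.0834) or replicates 1 or 3 of TPC-1 (0.0859 and 0.0744). *MCL1*, a survival gene of the BCL2 family, rose by 0.16 (adjusted p = 6.94e-03).

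**Figure D4:**
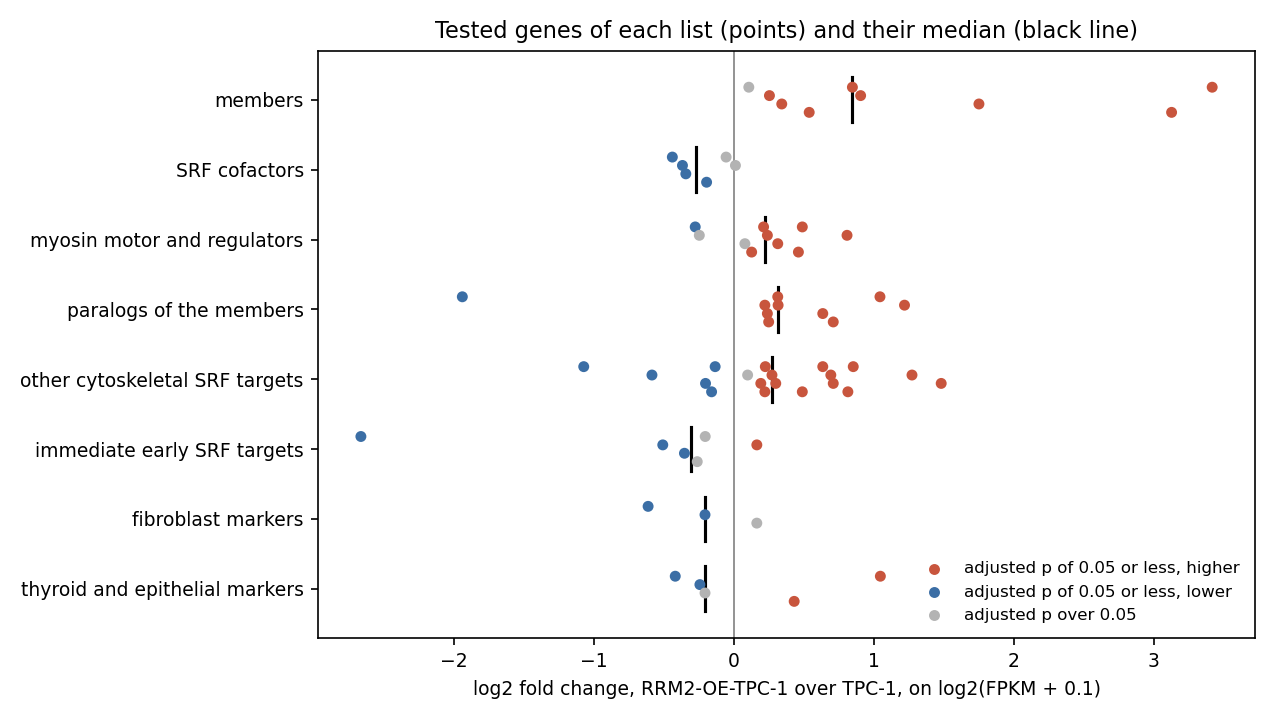
Log2 fold change of every tested gene of the contractile genes (labelled members) and of 7 lists, as points coloured by whether the gene was called higher, called lower or not called, with a black line at each list's median. The median of the 9 tested contractile genes is 0.85, that of the SRF cofactors -0.27 and that of the immediate early targets -0.31.

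Smooth muscle markers outside the 10 genes were examined because *ACTA2*, *TAGLN* and *CNN1* mark smooth muscle. *SMTN*, the gene of smoothelin, was at 3.36, 3.30 and 3.19 FPKM in TPC-1 and at 12.6, 13.5 and 12.9 FPKM in *RRM2*-OE-TPC-1 (log2 fold change 1.95, SE 0.0512, adjusted p = 5.79e-08). *CSRP1*, a LIM protein of the cytoskeleton, rose by 0.45 (adjusted p = 8.44e-06), and *SYNM*, an intermediate filament gene, was not called (log2 fold change -0.11, adjusted p = 0.266). The defining markers of differentiated smooth muscle were at or near the floor. Of the 13 genes of the list, *MYOCD*, *PDLIM3*, *CASQ2* and *KCNMB1* had 0 reads in all libraries, *DES* had 3 reads in TPC-1 and none in *RRM2*-OE-TPC-1, and *MYH11* had 82 and 68 reads over the 3 libraries of each group. The summed FPKM of the list was 25.5 to 26.4 in TPC-1 and 41.4 to 43.1 in *RRM2*-OE-TPC-1, and its part in the *ACTA2* and *TAGLN* results was not tested.

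Of 10 fibroblast markers 3 were tested, and none was called higher and 2 lower. For this list and the next, the counts are too small to be read against the 34.9% and 32.7% of all tested genes. *COL1A1* fell by 0.61 (adjusted p = 0.0129, and 0.0771 with no filter on low values) and *PDPN* by 0.21 (adjusted p = 8.76e-03). *COL1A2*, *COL3A1* and *DCN* had 0 reads in all libraries, and the list summed to 15.0 to 16.9 FPKM in TPC-1 and 13.7 to 14.4 in *RRM2*-OE-TPC-1. Of 13 thyroid and epithelial markers 5 were tested, with 2 called higher and 2 lower. *KRT18* rose by 1.05 (adjusted p = 2.74e-07) and *KRT8* by 0.43 (adjusted p = 2.18e-03), and the thyroid transcription factors *FOXE1* and *PAX8* fell by 0.42 (adjusted p = 4.38e-04) and 0.24 (adjusted p = 5.46e-04). Mean *PAX8* levels were 69.3 ± 1.84 and 58.5 ± 1.92 FPKM (SD, n = 3). *NKX2-1* had 0 reads in all libraries, and *TG*, *TSHR*, *EPCAM* and *CDH1* had at most 20 reads in a library. Of the other keratins on the list, *KRT7* was at means of 1.18 FPKM in TPC-1 and 1.01 FPKM in *RRM2*-OE-TPC-1. It was not called (log2 fold change -0.21, adjusted p = 0.169). *KRT19* had 0, 1 and 0 reads in TPC-1 and 2, 5 and 4 in *RRM2*-OE-TPC-1. The libraries thus carried *PAX8*, *KRT8* and *KRT18*, with little *KRT7* and almost no *KRT19*. They held few or no reads of the differentiated products of the thyroid follicle. The list summed to 117 to 121 FPKM in TPC-1 and 150.2 to 153.8 in *RRM2*-OE-TPC-1.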

How the data were processed

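mRNA of 3 wild strain TPC-1 and 3 *RRM2*-OE-TPC-1 libraries was measured by RNA sequencing. The methods describe poly(A) selection and a directional kit, whereas per the labels RNase R was used after ribosomal RNA had been depleted. Reads were cleaned by the authors (fastp), aligned (HISAT2 2.0.5) and counted per gene (featureCounts 1.5.0-p3), and FPKM values of 58735 genes were deposited. Gene positions were those of GENCODE 29, and the labels name GRCh38.p14. Multiplied by gene length, 100% of values were whole multiples of a step per library within 0.01, which gave the reads.

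Because the deposited unit is FPKM, limma 3.58.1 in R 4.3.3 (lmFit, eBayes with trend) was fitted to log2(FPKM + 0.1) in place of the authors' DESeq2 1.20.0, with Benjamini-Hochberg adjustment over 13621 genes. A gene was tested if 3 or more libraries reached 0.5 FPKM and 10 reads. Fold changes on this scale understate the change of low genes. The fits were checked on simulated data in which far fewer genes changed than were called here, so that check does not cover changes as common as these. Family shares were compared with an exact permutation test. Python 3.11.15 was also used (scipy 1.17.1, pandas 2.3.3, matplotlib 3.10.9, numpy 2.4.6).

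The 10 genes and all lists were chosen with earlier results of these data known. Named genes were *RRM2*, the 10 genes, their paralogs, the SRF cofactors, and up to 3 called genes in each direction from every other list. Further genes were named with their values known. A few genes and 1 list within this rule are left out of the text. Alternatives were other pseudocounts, filters and scalings, voom on recovered reads, the replicate number as a block, and each library left out in turn.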

Additional observations from a re-analysis of the deposited data

How the results depend on the processing

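Of the 10 genes, 8 were called under all alternatives but one, and 9 without replicate 1 of TPC-1, where *SRF* was added; 3 were called with a doubling under every alternative run. Counts of members called stayed between 8 and 9, and of those with a doubling at 3, with each library left out. The log2 fold change ranged from 1.62 to 4.04 for *ACTA2* and from 2.29 to 3.26 for *TAGLN* over 14 alternatives, and from 1.67 to 1.77 for *CALD1*. Taken on reads not divided by gene length, the share of *TAGLN* rose by 2.60 percentage points in place of 1.68 and that of *TPM1* fell by 9.24, where the share of FPKM fell by 6.56. Allowing 1 mismatch raised the number of genes with a CArG box from 3 to 5. The number of SRF cofactors called went from 4 to 2 without replicate 3 of either group, and that of fibroblast markers from 2 to 1 with no filter on low values. The latter also ended the calls of *SCAI* (adjusted p = 0.0794), *NR4A1* (0.0759) and *TGFB1I1* (0.0672), and took the cofactors called from 4 to 3, the immediate early targets from 4 to 3 and the cytoskeletal targets from 18 to 17. Over all genes, 1560 were called with a doubling or halving, and 716 with a pseudocount of 1. Same-numbered libraries did not deviate together (correlations of -0.011, -0.0060 and -0.055), and differently numbered ones lay between -0.048 and 0.061. No pairing by number was seen, and these values cannot show that there was none. With the replicate number as a block, 8 of the 10 genes were called and *RRM2* had a log2 fold change of 2.43, while *MRTFB*, *SCAI* and *NR4A1* were no longer called (adjusted p = 0.0602, 0.0514 and 0.0512) and 2 cofactors remained called. *ACTA2* in TPC-1 and *CNN1* throughout rested on at most 11 reads in a library, so that their levels there are imprecise.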

Other observations

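A pair of further actin gene groups was examined after the data had been seen. The Arp2/3 complex nucleates branched actin filaments and capping protein closes their growing ends. Of these 12 genes, 11 were tested, 9 were called higher in *RRM2*-OE-TPC-1 and none was called lower, with a median log2 fold change of 0.41. For this group and the next, the shares over all tested genes were 34.9% higher and 32.7% lower. *ARPC1A* rose by 0.76 (adjusted p = 1.07e-04), *ARPC5L* by 0.76 (adjusted p = 1.28e-05) and *CAPZA1* by 0.67 (adjusted p = 3.63e-06). *ACTR2* (0.09, adjusted p = 0.112) and *CAPZA2* (0.06, adjusted p = 0.227) were not called. Of 12 genes that bundle or sever filaments or link them to the membrane, 8 were tested, 5 called higher and 2 lower, with a median of 0.34. The membrane linker *EZR* rose from 79.2 ± 3.66 to 146 ± 3.35 FPKM (SD, n = 3), or by 0.89 on the log2 scale (adjusted p = 8.38e-07), and *MSN*, of the same family, by 0.56 (adjusted p = 1.64e-06), whereas their relative *RDX* had a log2 fold change of -0.01 (adjusted p = 0.878). The bundlers *FSCN1* and *PLS3* rose by 0.58 (adjusted p = 4.83e-06) and 0.56 (adjusted p = 6.13e-06). The capping and severing genes *CAPG* and *GSN* fell by 0.46 (adjusted p = 8.39e-06) and 0.22 (adjusted p = 1.74e-03).

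Some list genes were too low to be tested and are named here after their values were seen. *ANKRD1*, a cytoskeletal SRF target, had 1, 0 and 1 reads in TPC-1 and 19, 10 and 12 in *RRM2*-OE-TPC-1. With so few reads the ratio was 21.3, with an exact counting interval of 5.54 to 182. *EGR3*, a relative of *EGR1*, had 31, 26 and 30 reads in TPC-1 and 5, 4 and 6 in *RRM2*-OE-TPC-1, a ratio of 0.179 with a counting interval of 0.0963 to 0.312. Neither pair of groups overlapped, whereas the groups did overlap for *FOS* and *EGR2*, immediate early targets that were also too low to be tested. Of all tested genes, 37.3% had every *RRM2*-OE-TPC-1 library above every TPC-1 library.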
